A study of Mus musculus with 9 samples.

Results

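The miR-200 family of the mouse was followed in 9 libraries of small RNA, 7 from MIN6 cells and 2 from liver. It consists of 5 hairpins, miR-200c, miR-141, miR-200b, miR-200a and miR-429, with 10 mature arms. The members were chosen by name, and each was located by the position of its 5′ end among the 1423109 5′ ends that had at least 1 read. MIN6 is a beta-cell-like line established from an insulinoma of a mouse, and was grown in medium with 25 mM glucose and 10% serum. From MIN6 RNA there were 3 libraries made with the Illumina TruSeq protocol (TS-GAIIx), 3 with the older Illumina v1.5 protocol (v1.5-GAIIx) and 1 with the Bioo Scientific NEXTflex V2 protocol (NF-HiSeq). The liver RNA of 1 female C57BL/6J mouse, bought at 9 weeks of age, injected with saline after 10 days, and fasted overnight before collection 7 days later, gave 1 TruSeq library (TS-HiSeq-ML) and 1 NEXTflex library (NF-HiSeq-ML). No group carried a gene deletion or received a drug. TS-GAIIx and v1.5-GAIIx shared sequencer, facility and date, whereas NF-HiSeq differed from them in sequencer, facility and date as well as in protocol, and these cannot be told apart. NF-HiSeq was made from the RNA of a TruSeq library of the HiSeq set, which is not analysed here and was sequenced at UNC, and thus from another RNA sample than the GAIIx libraries, sequenced at the NIH. The methods give a column kit for RNA extraction at UNC and TRIzol at the NIH, so the extraction cannot be told apart from the protocol either.

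A microRNA (miRNA) is cut from a hairpin precursor as a pair of arms, 5p and 3p, one of which is usually kept and loaded into an Argonaute protein. It recognises target messenger RNAs mainly through its seed, the bases after the first at its 5′ end. The miR-200 family is known as a guardian of the epithelial state, since it represses the transcription factors Zeb1 and Zeb2, which in turn repress E-cadherin. In beta cells the family has been linked to cell survival under stress. Small RNA-seq joins an adapter to each end of these RNAs, and the NEXTflex adapters carry random bases at the ends that are joined while the Illumina adapters have fixed ends.

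The 3p arms fall into 2 seed groups, and the mature sequences from RefSeq (GRCm38.p6) are shown because the comparisons turn on how little they differ. Capitals mark the seed, bases 2 to 8 from the 5′ end.
miR-141-3p: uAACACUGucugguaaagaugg
miR-200a-3p: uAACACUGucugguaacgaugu
miR-200c-3p: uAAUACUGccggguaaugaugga
miR-200b-3p: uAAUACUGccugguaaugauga
miR-429-3p: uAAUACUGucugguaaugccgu

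Positions being counted from 1 at the 5′ end, miR-141-3p and miR-200a-3p share their first 16 bases and differ by A17C and G22U. miR-200c-3p and miR-200b-3p share their first 10 bases and differ by G11U and G22A, beside 1 more base at the 3′ end of miR-200c-3p. The seeds of the groups differ by 1 base, C4U from miR-141-3p to miR-200b-3p. The hairpins lie in 2 clusters, both on the minus strand, and each cluster holds members of both seed groups. Mir200c and Mir141 lie within 477 nt on chromosome 6 (124717914 to 124718390, GRCm38.p6). Both are within an intron of the antisense gene Gm15884 in GENCODE M21, and Mir141 also overlaps an exon of the unclassified transcript Gm29008. Mir200b, Mir200a and Mir429 lie within 1846 nt on chromosome 4 (156053905 to 156055750), inside an intron of the protein-coding gene Ttll10 and inside the transcript Gm13648, with an exon of which Mir429 overlaps. In the mm9 coordinates of the deposited alignments, the 3p arms start at 124668364 (miR-200c-3p) and 124667956 (miR-141-3p) on chromosome 6, and at 155429815 (miR-200b-3p), 155429041 (miR-200a-3p) and 155428046 (miR-429-3p) on chromosome 4.

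Depth, as the sum of the deposited expected counts, ran from 6.92 to 13.2 (in units of 1e6 reads) in the 6 GAIIx libraries, was 25.6 in NF-HiSeq, and was 17.9 and 14.4 in TS-HiSeq-ML and NF-HiSeq-ML. Levels are reads at a 5′ end per 1e6 mapped reads (RPMM), and intervals and limits cover counting error only, since reads of amplified copies are not independent molecules. Replicates of a group differed by more than sampling noise (38.5 to 235 as the chi-square divided by its degrees of freedom, over 575 abundant 5′ ends), so none was a repeat deposit of another. The study calls the libraries of a method biological replicates and the cells used with both Illumina protocols a common batch, its methods do not say whether the replicates were separate cultures, and p-values measure the spread between these libraries. TS-GAIIx-1 and TS-GAIIx-2 stood apart from TS-GAIIx-3 in read errors, with a C at position 2 in 2.20% to 3.37% of the reads of each 3p arm against at most 0.0144% in TS-GAIIx-3. v1.5-GAIIx-1 stood apart as well, with mismatches on 0.238% to 0.272% of the reads of a 3p arm per position, averaged over positions 2 to 17, against 0.0455% to 0.0802% in v1.5-GAIIx-2 and v1.5-GAIIx-3. The labels were checked with marker miRNAs: the beta-cell miRNA miR-375-3p averaged 174615 RPMM in TS-GAIIx and had 39.97 in TS-HiSeq-ML, and the hepatocyte miRNA miR-122-5p averaged 0.390 in TS-GAIIx and had 17244 in TS-HiSeq-ML. In NF-HiSeq miR-122-5p had 128 RPMM, and in NF-HiSeq-ML miR-375-3p had 26.7; what part RNA of another source has in these libraries was not tested.

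All 5 3p arms were present in MIN6 cells under each protocol, and all were higher with v1.5 than with TruSeq, by 1.67-fold to 13.3-fold. Together they made up 2.15% ± 0.0399 of mapped reads in TS-GAIIx, 7.80% ± 0.299 in v1.5-GAIIx (SD, n = 3 each) and 1.51% in NF-HiSeq. miR-141-3p was the highest of the 5 with both Illumina protocols, and miR-200c-3p with NEXTflex.

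miR-200c-3p, the longest of the mature sequences above, had 1968, 2027 and 1832 RPMM in the 3 TS-GAIIx libraries, 25724, 25471 and 26098 in v1.5-GAIIx and 9660 in NF-HiSeq. The groups were far apart, with NF-HiSeq between them, and v1.5 was 13.3-fold higher than TruSeq (log2 fold change 3.73 ± 0.0469 SE, adjusted p = 7.3e-07, quasi-likelihood test of edgeR, p adjusted after Benjamini and Hochberg). Its cluster partner miR-141-3p had 14761, 14967 and 15768 RPMM in TS-GAIIx, 34846, 36957 and 39360 in v1.5-GAIIx and 2247 in NF-HiSeq. It was higher with v1.5 by 1.29 ± 0.0527 on the log2 scale (adjusted p = 1.28e-05, edgeR), and NF-HiSeq lay below every GAIIx library.

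In the second cluster, miR-200b-3p had 1833, 1977 and 1873 RPMM in TS-GAIIx, 4120, 4334 and 4385 in v1.5-GAIIx and 1346 in NF-HiSeq. miR-200a-3p, which shares the seed of miR-141-3p, had 705, 650 and 577 RPMM in TS-GAIIx, 7408, 7889 and 8123 in v1.5-GAIIx and 1229 in NF-HiSeq. It was the lowest 3p arm of the family in every TS-GAIIx library and the third highest in every v1.5-GAIIx library. miR-429-3p, transcribed from the same cluster, had 1835, 1840 and 1848 RPMM in TS-GAIIx, 2993, 3117 and 3092 in v1.5-GAIIx and 633 in NF-HiSeq. The log2 fold changes of v1.5 over TruSeq were 3.60 ± 0.0900 for miR-200a-3p, 1.18 ± 0.0462 for miR-200b-3p and 0.74 ± 0.0340 for miR-429-3p, with adjusted p of 4.74e-06, 1.15e-05 and 1.75e-05 (edgeR).

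In TS-GAIIx, miR-200c-3p, miR-200b-3p and miR-429-3p could not be put in order, since their ranges of 1832 to 2027, 1833 to 1977 and 1835 to 1848 RPMM overlapped. In v1.5-GAIIx the ranges of neighbouring members did not overlap, and the order from high to low was miR-141-3p, miR-200c-3p, miR-200a-3p, miR-200b-3p and miR-429-3p. Among 261 reference miRNAs, miR-200c-3p ranked 46 to 53 in TS-GAIIx, 8 in each v1.5-GAIIx library and 17 in NF-HiSeq. Over the same libraries miR-141-3p ranked 9, 4 and 44.

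**Figure D1:**
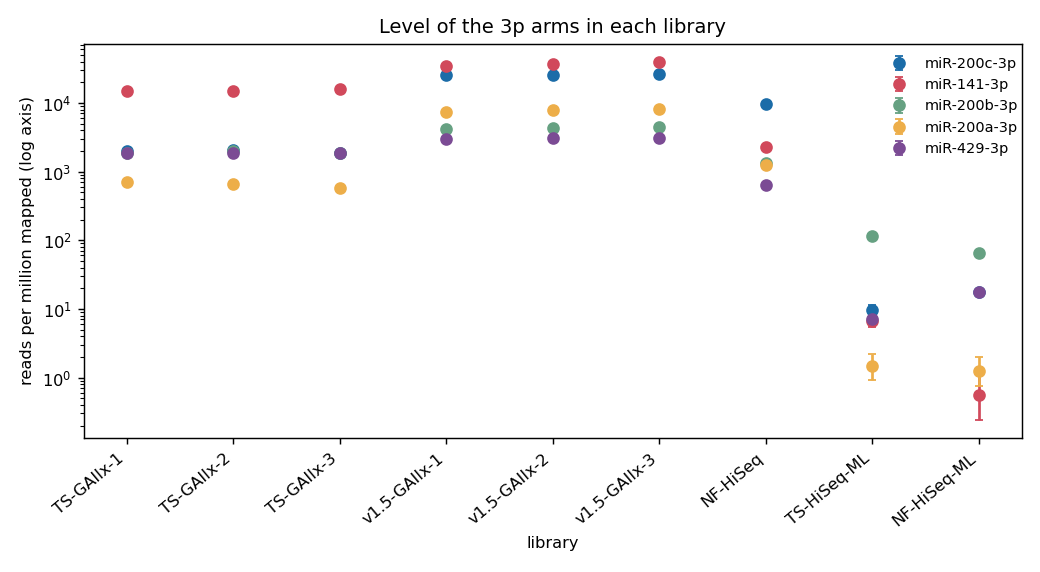
Level of each 3p arm in the 9 libraries, in RPMM on a log axis, with exact 95% Poisson intervals of the counts (smaller than the points in MIN6). miR-141-3p (red) leads in the 6 GAIIx libraries, miR-200c-3p (blue) in NF-HiSeq at 9660, and miR-200b-3p (green) in both liver libraries.

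The 5p arms were scarce, at 224 ± 4.52 RPMM in sum in TS-GAIIx, 249 ± 4.71 in v1.5-GAIIx (SD, n = 3) and 117 in NF-HiSeq. miR-141-5p had 155 to 160 RPMM in TS-GAIIx and 99.9 to 102 in v1.5-GAIIx, and it fell by 0.64 on the log2 scale with v1.5 (SE 0.0586, adjusted p = 0.000175, edgeR). This is the direction of the reference start alone: with all starts within 5 nt summed, miR-141-5p was higher with v1.5, by 0.49 (adjusted p = 0.000405, edgeR), and with exact alignments only the change at the reference start was -0.30 (adjusted p = 0.00787). miR-200a-5p, at 38.9 to 45.9 and 25.9 to 29.0 RPMM, fell by 0.60 (SE 0.104, adjusted p = 0.00239, edgeR). The other 5p arms rose with v1.5. miR-200c-5p went from 7.73 ± 1.93 to 31.3 ± 1.64 RPMM at the reference start, a log2 fold change of 2.01 that became 1.14 with all starts within 5 nt, since a start 1 nt downstream went from 9.57 ± 0.982 to 6.16 ± 0.843. miR-200b-5p from 16.1 ± 0.811 to 74.5 ± 2.73, and miR-429-5p from 1.05 ± 0.165 to 14.4 ± 0.860 (SD, n = 3). miR-429-5p was not detected in NF-HiSeq, where 3 reads, the limit that a count of 0 allows, correspond to 0.117 RPMM.

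All 10 arms passed an adjusted p of 0.05 in this comparison (edgeR), 8 of them higher with v1.5 and 2 higher with TruSeq, miR-141-5p being among the latter at its reference start only. With no filter on low counts miR-141-3p and miR-429-3p lost their call (adjusted p = 0.486 and 0.316, edgeR), which left 8. Of all 16486 5′ ends tested 76.0% passed, 45.5% as higher with v1.5 and 30.6% as higher with TruSeq. A call is therefore the common case between these protocols and sets no member apart. The balance of directions depended on the 5′ ends tested, with 255 higher and 260 lower with v1.5 among the 575 with a mean of at least 100 RPMM, and 6437 and 2928 when only alignments of at least 17 nt were counted, an alternative chosen after the data had been seen. The median log2 fold change of all 5′ ends tested was 0.58, against 0.74 for miR-429-3p. That median was 0.14 with a minimum mean of 100 RPMM and 1.05 with alignments of at least 17 nt. With TMM factors the median became 0.22 and the value of miR-429-3p 0.38, and with DESeq2 size factors they became 0.18 and 0.35. All 10 arms were called in the same direction with both.

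**Figure D2:**
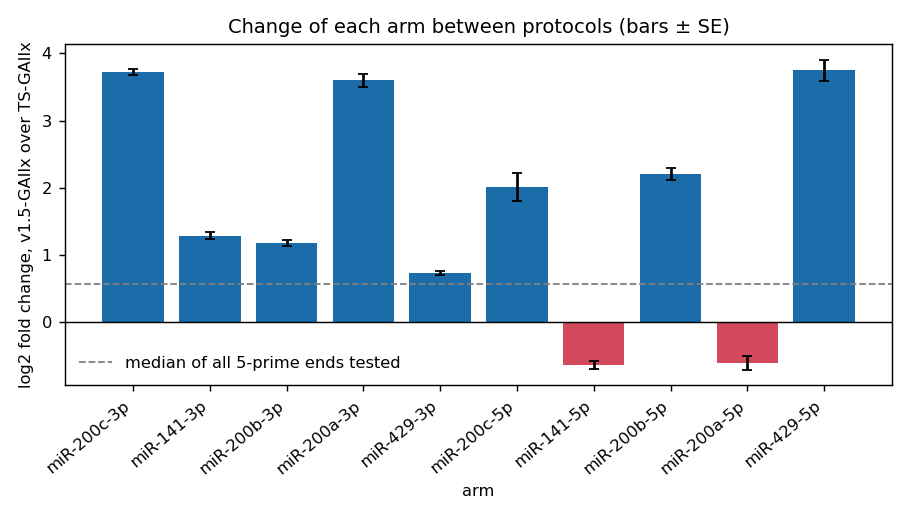
Change from TS-GAIIx to v1.5-GAIIx on the log2 scale for the 10 arms, with the SE of the edgeR fit (3 libraries a group). Bars above 0 are higher with v1.5, and the dashed line is the median of all 5′ ends tested, 0.58. miR-200c-3p, miR-200a-3p and miR-429-5p lie above 3.5, and miR-141-5p and miR-200a-5p lie below 0.

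Ratios between members within one library do not depend on how libraries are scaled. The changes of the 3p arms spanned 2.99 on the log2 scale, from miR-429-3p to miR-200c-3p. Neither the seed nor the cluster grouped the members by their change. The smallest changes of a ratio, 0.11 and 0.13, were those of miR-141-3p over miR-200b-3p and of miR-200c-3p over miR-200a-3p, pairs that share neither seed nor cluster. With exact alignments only, the first turned to -0.17 and the second became 0.27. Both moved when 1 library was left out. The first was 0.071 without TS-GAIIx-2, and the second 0.070 without TS-GAIIx-1 (exact permutation p = 0.3). The groups of the second still did not overlap there. The latter pair had a log2 ratio of 1.60 ± 0.101 in TS-GAIIx and 1.72 ± 0.0628 in v1.5-GAIIx (SD, n = 3). By contrast miR-141-3p and miR-200a-3p, identical over 16 bases, had a log2 ratio of 4.39, 4.52 and 4.77 in TS-GAIIx, of 2.23, 2.23 and 2.28 in v1.5-GAIIx and of 0.87 in NF-HiSeq. This ratio fell by 2.31 ± 0.113 (SE) from TruSeq to v1.5. miR-200c-3p over miR-200b-3p, a pair with the same seed, rose by 2.55 ± 0.0469, from 0.036 ± 0.0669 to 2.59 ± 0.0461 (SD, n = 3), and was 2.84 in NF-HiSeq.

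Of the 10 pairs, 6 changed by 2.31 to 2.99 in size and 4 by 0.11 to 0.55. The groups did not overlap for any pair, and the exact two-sided permutation test gave p = 0.1 for each, the smallest that 3 against 3 libraries allow (0.1 after adjustment over the 10 pairs). For miR-200c-3p over miR-200a-3p the groups overlapped when only whole-number counts were used (change 0.085, exact permutation p = 0.6). Among 32385 pairs of other reference miRNAs, 94.3% did not overlap and the median change was 2.06, so shifts of this size between miRNAs are usual here.

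The share of the family's 3p reads with the miR-141/200a seed was 73.3%, 72.8% and 74.6% in TS-GAIIx, 56.3%, 57.7% and 58.6% in v1.5-GAIIx and 22.99% in NF-HiSeq. The groups did not overlap, and the share was lower with v1.5 by 16.1 percentage points (exact two-sided permutation p = 0.1, the smallest possible). The cluster made a different picture. The chromosome 6 cluster held 79.6% ± 0.661 of the family's reads in TS-GAIIx, 80.6% ± 0.255 in v1.5-GAIIx (SD, n = 3) and 78.8% in NF-HiSeq, and the TS-GAIIx and v1.5-GAIIx ranges overlapped (exact two-sided permutation p = 0.2). Within that cluster the members moved in opposite directions: the share of miR-141-3p in the family went from 70.6% ± 1.25 in TS-GAIIx to 47.5% ± 1.08 in v1.5-GAIIx and 14.9% in NF-HiSeq, and that of miR-200c-3p from 9.05% ± 0.590 to 33.1% ± 1.07 and 63.9%. Counting only alignments without a mismatch, the small difference in the cluster share became -1.04 percentage points, against 0.95 with all alignments, and the groups then did not overlap (exact two-sided permutation p = 0.1). Without TS-GAIIx-3 it was 1.33 percentage points, also without overlap.

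**Figure D3:**
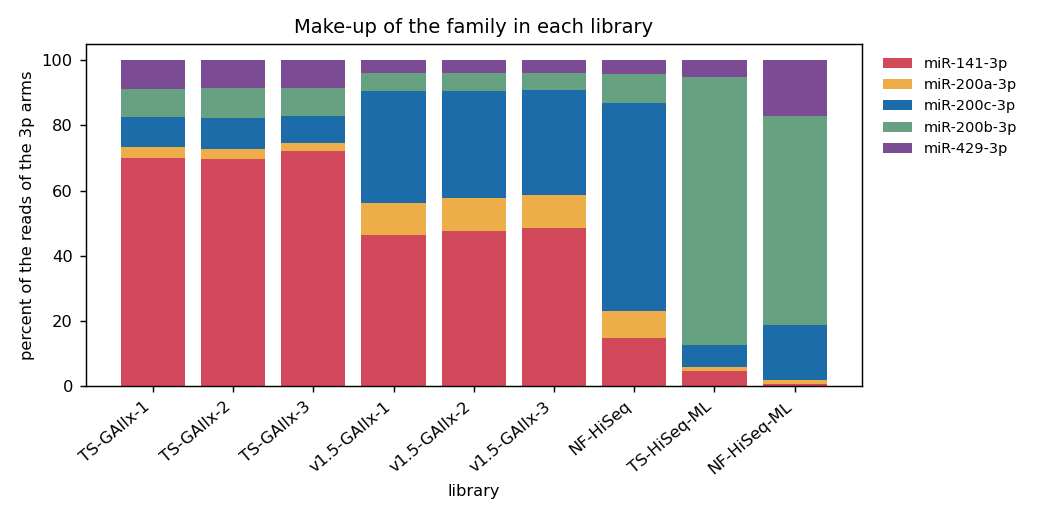
Percentage of the reads of the 3p arms that each member took, as stacked bars from 0 to 100, 1 bar per library. The red and yellow segments are the miR-141/200a seed, 72.8% to 74.6% in TS-GAIIx, 56.3% to 58.6% in v1.5-GAIIx and 22.99% in NF-HiSeq, and miR-200b-3p (green) makes up most of both liver bars.

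The arms also differed in where their reads ended. The 21-nt and 23-nt reads of miR-141-3p are shown because their levels moved in opposite directions, with the bases after the 20th in capitals.
21 nt: uaacacugucugguaaagauG
23 nt: uaacacugucugguaaagauGGC
Of the miR-141-3p reads at the reference start, the 21-nt form made up 82.9%, 82.9% and 84.3% in TS-GAIIx, 7.62%, 7.39% and 7.63% in v1.5-GAIIx and 28.4% in NF-HiSeq. The 23-nt form made up 7.73%, 7.82% and 6.97% in TS-GAIIx, 72.9%, 72.1% and 72.1% in v1.5-GAIIx and 47.6% in NF-HiSeq. So the commonest length was 21 nt in every TruSeq library, liver included, and 23 nt in every v1.5 and NEXTflex library (7 of the 8 reads in NF-HiSeq-ML). In an edgeR fit of 5′ ends split by length, added after the data had been seen, the 21-nt form was lower with v1.5 (log2 fold change -2.18 ± 0.0599 SE, adjusted p = 2.73e-06) and the 23-nt form higher (4.56 ± 0.0546, adjusted p = 4.47e-07). In that fit 81.1% of 23077 forms passed the threshold, 47.5% as higher and 33.6% as lower with v1.5, and 25.8% of the 4313 5′ ends with at least 2 tested lengths had lengths that were called in both directions.

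The other 3p arms shifted less. The 23-nt form of miR-200a-3p went from 56.0% ± 0.0302 of its reads in TS-GAIIx to 87.7% ± 0.221 in v1.5-GAIIx (SD, n = 3). For miR-429-3p the commonest length was 21 nt in TS-GAIIx (62.0% ± 0.942) and 22 nt in v1.5-GAIIx (53.7% ± 0.846) and NF-HiSeq (47.8%). miR-200b-3p moved the other way, its 21-nt form rising from 1.40% ± 0.0807 to 10.0% ± 0.552 while its 23-nt form went from 63.9% ± 0.615 to 52.9% ± 1.005. Mean lengths changed with v1.5 by 1.59 nt for miR-141-3p, 0.61 nt for miR-200a-3p, 0.29 nt for miR-429-3p, 0.15 nt for miR-200c-3p and -0.33 nt for miR-200b-3p. The groups did not overlap for any of the 5 (exact permutation p = 0.1 each), and 86.3% of 255 other reference miRNAs did not overlap either. Their median change in mean length was 0.185 nt in size, and 0.563 nt at the 90th percentile.

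**Figure D4:**
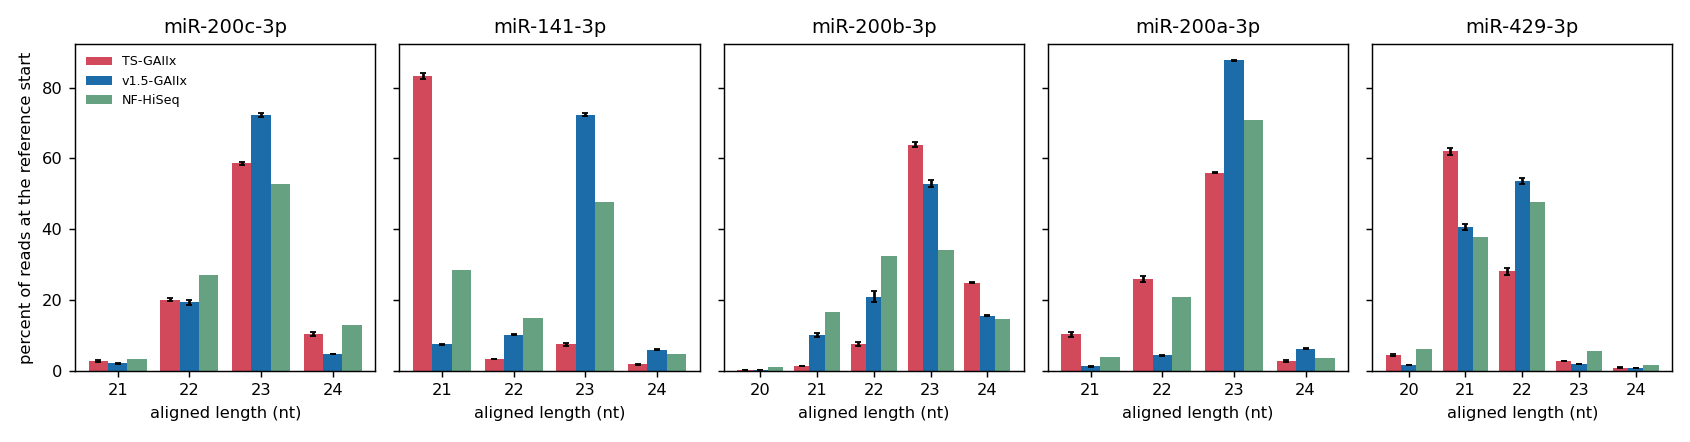
Percentage of the reads at the reference start by aligned length, for the 3p arms in TS-GAIIx (red), v1.5-GAIIx (blue; bars ± SD, n = 3) and NF-HiSeq (green, 1 library). Lengths that reached 5% in at least 1 library are drawn, up to 24 nt. For miR-141-3p the tall bar is at 21 nt in TS-GAIIx (83.4%) and at 23 nt in v1.5-GAIIx (72.4%).

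Some reads ended in a base that the genome does not have there. Such a last base was found on 25.7% ± 0.148 of the miR-200b-3p reads in TS-GAIIx, 16.5% ± 0.104 in v1.5-GAIIx (SD, n = 3) and 17.7% in NF-HiSeq. A mismatched U at the end of miR-200b-3p was on 19.4%, 19.2% and 19.4% of reads in TS-GAIIx, on 7.0005%, 7.17% and 6.83% in v1.5-GAIIx and on 10.7% in NF-HiSeq. A mismatched A there went the other way, from 4.31% ± 0.211 to 8.48% ± 0.0461. For comparison, mismatches at positions 2 to 17 of miR-200b-3p averaged 0.0398% to 0.260% of reads per position in the 6 GAIIx libraries.

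With v1.5 the share of reads with a mismatched last base was lower for miR-200b-3p, miR-200c-3p (18.7% ± 1.45 to 9.58% ± 0.0970) and miR-429-3p (6.63% ± 0.459 to 3.75% ± 0.109). It was higher for miR-141-3p (2.48% ± 0.214 to 9.31% ± 0.286) and miR-200a-3p (3.24% ± 0.311 to 6.39% ± 0.135). The single bases did not all follow: a mismatched U on miR-200a-3p was at 1.27% ± 0.259 and 1.26% ± 0.0230 with overlapping groups, and a mismatched A was higher with v1.5 on miR-200b-3p, miR-141-3p and miR-200a-3p and lower on miR-200c-3p and miR-429-3p. The groups did not overlap for any of the 5 arms (exact permutation p = 0.1 each), nor for 80.8% of the 255 other reference miRNAs.

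**Figure D5:**
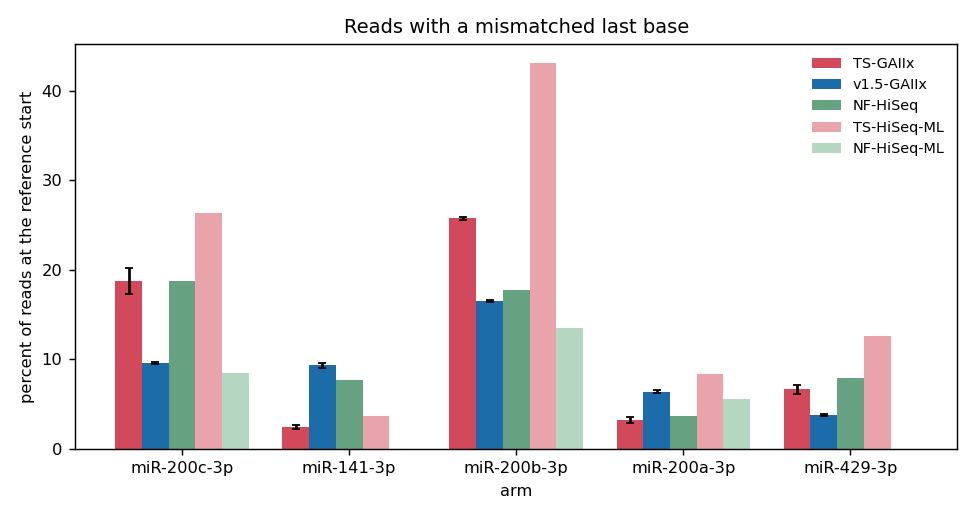
Percentage of the reads at the reference start whose last base is not the genome's, for each 3p arm in the 5 groups of libraries (bars ± SD for the 3 TS-GAIIx and 3 v1.5-GAIIx libraries, the other groups having 1 library each). miR-200b-3p is highest in TS-HiSeq-ML at 43.1% and in TS-GAIIx at 25.7%.

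One class of read could not be assigned to a single member. A 21-nt miR-141-3p with an added U differs by 1 base from both miR-141-3p and miR-200a-3p, and the authors' counts divided it evenly between them. It made up 3.97% to 4.70% of the miR-200a-3p count in TS-GAIIx and 0.259% to 0.274% in v1.5-GAIIx. Without it miR-200a-3p was 616 ± 63.7 RPMM in TS-GAIIx and 7786 ± 363 in v1.5-GAIIx (SD, n = 3), a ratio of 12.6 in place of 12.1.

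The 5′ ends of the 3p arms, which fix the seed, were nearly uniform. In the MIN6 libraries at most 3.02% of the reads within 5 nt of a 3p start began elsewhere, the highest value being that of miR-200c-3p in NF-HiSeq. The TS-GAIIx and v1.5-GAIIx shares did not overlap for 4 of the 5 arms, and likewise for 64.3% of the other reference miRNAs. For miR-200a-3p they did, at 0.652% ± 0.156 and 0.573% ± 0.0210 (SD, n = 3).

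The 5p arms were less uniform. The start 2 nt upstream of the reference end of miR-141-5p is shown beside it, since the direction of the protocol difference turned on it, with the seed of each in capitals.
reference: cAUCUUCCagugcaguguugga
2 nt upstream: uCCAUCUUccagugcaguguugga
This upstream form made up 40.5%, 41.3% and 38.7% of miR-141-5p reads in TS-GAIIx, 72.3%, 71.6% and 72.1% in v1.5-GAIIx and 47.6% in NF-HiSeq. Its level was 114 ± 8.43 RPMM in TS-GAIIx and 288 ± 6.90 in v1.5-GAIIx (SD, n = 3), 2.52-fold higher, whereas the reference form was 1.56-fold lower. miR-200c-5p had a start 1 nt downstream in 53.3%, 64.9% and 47.0% of its reads in TS-GAIIx (111 to 219 reads), in 13.7% to 18.0% in v1.5-GAIIx, and in none of 164 reads in NF-HiSeq. For miR-200b-5p a start 1 nt downstream held 6.96% to 10.1% in TS-GAIIx and 4.05% to 6.62% in v1.5-GAIIx. A start 1 nt upstream of miR-141-5p held 6.85% in NF-HiSeq. Among 3p arms, a start 1 nt downstream held 5.89% of miR-200b-3p in TS-HiSeq-ML and 11.1% of the 9 miR-141-3p reads in NF-HiSeq-ML.

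The 3p arm was the dominant arm of every hairpin in MIN6 cells. The 5p arm of miR-200a took 6.08% ± 0.246 of the hairpin's reads in TS-GAIIx, 0.353% ± 0.0169 in v1.5-GAIIx (SD, n = 3) and 3.41% in NF-HiSeq, and that of miR-141 took 1.83% ± 0.121, 1.07% ± 0.0775 and 3.22%. For miR-200b the 5p share was larger with v1.5 (1.79% ± 0.0306 against 0.903% ± 0.0705), and for miR-429 as well (0.468% ± 0.0343 against 0.0570% ± 0.00899). For miR-200c it was smaller (0.148% ± 0.00495 against 0.882% ± 0.0941). The difference for miR-200c, -0.734 percentage points, became -0.279 with reference starts only, and that for miR-141, -0.760, became -0.224 with exact alignments only. The groups did not overlap for any of the 5 hairpins (exact permutation p = 0.1 each), nor for 97.9% of 48 other hairpins with both arms located.

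NF-HiSeq is a single library, and its differences from the GAIIx libraries have no replicate check. With 1 RPMM added to each value, none of the 5 3p arms differed by more than 10-fold between NF-HiSeq and TS-GAIIx, where 49.3% of 829 abundant 5′ ends did, 9.89% as higher and 39.4% as lower in NF-HiSeq. miR-200c-3p was 4.97-fold and miR-200a-3p 1.91-fold higher in NF-HiSeq, and miR-141-3p was 6.75-fold, miR-429-3p 2.91-fold and miR-200b-3p 1.41-fold lower. Against v1.5-GAIIx all 5 were lower in NF-HiSeq, and 1 passed 10-fold, miR-141-3p at 16.5-fold. There 41.0% of 752 abundant 5′ ends passed, 7.58% as higher and 33.4% as lower in NF-HiSeq.

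In liver the family was rare, at 140 RPMM in sum in TS-HiSeq-ML and 102 in NF-HiSeq-ML. In a tissue, fewer cells of a type and less RNA per cell cannot be told apart. miR-200b-3p led with 1900.5 reads or 115 RPMM in TS-HiSeq-ML (95% Poisson interval 110 to 121) and 65.9 RPMM in NF-HiSeq-ML (61.7 to 70.2), which is 82.2% and 64.3% of the family's 3p reads. miR-141-3p, the leading member in both Illumina sets of MIN6, had 109 reads (6.61 RPMM, 5.43 to 7.97) in TS-HiSeq-ML and 8 reads (0.556 RPMM, 0.240 to 1.10) in NF-HiSeq-ML. The share with the miR-141/200a seed was 5.75% and 1.77%, and that of the chromosome 6 cluster 11.6% and 17.5%.

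Between the protocols in liver, where RNA of the same tissue was used, none of the 5 3p arms passed 10-fold with 1 RPMM added, against 46.0% of 744 abundant 5′ ends (7.66% higher and 38.3% lower with NEXTflex). These reached 100 RPMM in a liver library, which miR-200b-3p alone did among the members. At 6.61, 7.22 and 1.46 RPMM with TruSeq, miR-141-3p, miR-429-3p and miR-200a-3p could not have passed 10-fold as lower on this scale, so their count cannot be read against that share. miR-141-3p was 4.89-fold lower with NEXTflex, and 11.9-fold lower with nothing added. miR-429-3p was 2.24-fold and miR-200c-3p 1.72-fold higher. The 250 reads of miR-429-3p in NF-HiSeq-ML came from 5 distinct alignments, and 97.2% of them were 1 alignment, whereas its 119 reads in TS-HiSeq-ML came from 12. What part amplified copies have in these counts was not tested. miR-200a was the one hairpin with more 5p than 3p reads, 36 against 24 at the reference starts in TS-HiSeq-ML, whereas NF-HiSeq-ML had 1 and 18. The mismatched U on miR-200b-3p was again more frequent with TruSeq, at 33.6% of reads against 13.5% with NEXTflex. The miR-200b-3p reads came from 58 distinct alignments in TS-HiSeq-ML and from 23 in NF-HiSeq-ML.

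All 5 3p arms were more than 10-fold higher in MIN6 cells than in liver with both protocols. Among 1114 abundant 5′ ends 67.8% passed 10-fold with TruSeq, 34.3% as higher and 33.5% as lower in MIN6. Among 517 with NEXTflex 50.3% passed, 33.1% as higher and 17.2% as lower. With 1 RPMM added, the ratio of TS-GAIIx to TS-HiSeq-ML was 1993 for miR-141-3p, 263 for miR-200a-3p, 224 for miR-429-3p, 182.1 for miR-200c-3p and 16.3 for miR-200b-3p. The ratio of NF-HiSeq to NF-HiSeq-ML was 1444 for miR-141-3p, 546 for miR-200a-3p, 527 for miR-200c-3p, 34.5 for miR-429-3p and 20.1 for miR-200b-3p. The added constant weighs on the scarcest in liver. With nothing added, miR-141-3p and miR-200a-3p had ratios of 2294 and 443 with TruSeq and of 4041 and 982 with NEXTflex. Their NF-HiSeq-ML values rest on 8 and 18 reads. miR-141-3p had the highest ratio and miR-200b-3p the lowest with both protocols. TS-GAIIx and TS-HiSeq-ML also differ in sequencer. By the methods they differ in RNA extraction too, with TRIzol at the NIH and a column kit for the liver. The facility may differ as well, since the paper does not name it for the liver libraries. None of these can be told apart from the source of the RNA.

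By the distance of centred log2 levels over the 3 MIN6 group means, the miRNA most like miR-200c-3p among 255 others was miR-126-3p (distance 0.115), an endothelial miRNA, at 12.6 RPMM in TS-GAIIx, 200 in v1.5-GAIIx and 70.0 in NF-HiSeq. Nearest to miR-141-3p was miR-582-5p (0.242), to miR-200b-3p miR-598-3p (0.0649), to miR-200a-3p miR-140-5p (0.0537) and to miR-429-3p miR-148a-3p (0.107). Of 9 other miRNA names of epithelial and endocrine tissue, 8 had a located 5′ end, miR-194-5p at 2 loci, which makes 9 entries tested. With v1.5, 4 of these were higher, 4 lower and 1 did not pass (median log2 fold change -0.23, against 0.58 for all 5′ ends), where 76.0% of all 5′ ends passed, 45.5% as higher and 30.6% as lower. miR-96-5p was higher by 3.55 ± 0.111 and miR-182-5p, from the same cluster as miR-96, lower by a log2 fold change of -1.23 ± 0.0519 (SE, adjusted p = 6.19e-06 and 1.34e-05, edgeR). miR-183-5p, of that cluster as well, lay between them at -0.23 ± 0.0455 (SE, adjusted p = 0.00442, edgeR).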

How the data were processed

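Small RNA was sequenced from MIN6 cells and mouse liver. The authors trimmed adapters with cutadapt (for NEXTflex also the degenerate end bases) and aligned reads with Bowtie to mm9, per the labels; versions are not given in the sources used here. The deposited values are expected counts per distinct alignment, with multiply aligned reads divided among their positions, and are not scaled for depth. In the deposited alignments, lines without a mismatch include the last base in the end coordinate and other lines do not, which was corrected here. Edit letters were read as bases of the read, since none of 505751 mismatched bases at the members equalled the hairpin base.

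The counts of alignments with the same 5′ end were added up and scaled to the mapped reads of the study's supplementary table (RPMM). The 3p arms were located at the 5′ end whose RPMM equals the value tabulated for their name (relative tolerance 3e-05), and the 5p arms by their distance in the RefSeq hairpin. Counts rounded to whole numbers were tested with edgeR 4.0.16 in R 4.3.3 (quasi-likelihood test, Benjamini-Hochberg adjustment) on all 5′ ends with a mean of at least 1 RPMM over the 6 GAIIx libraries. The test was checked on simulated data, where it recovered 12.7% of 2-fold changes at 1 to 10 RPMM and 42.9% at 10 RPMM or more. For 4-fold changes these shares were 35.8% and 84.2%, and 4 unchanged 5′ ends were called (0.0246%). The simulation changed far fewer 5′ ends than the 76.0% called in the data. Alternatives were DESeq2 1.42.0, other scaling factors, other filters, exact alignments, a 5-nt window around each start, the replicate number as a block, each replicate left out, and, chosen after seeing the data, alignments of at least 17 nt and 5′ ends split by length. Shares, lengths and ratios were computed with Python 3.11.15, numpy 2.4.6, pandas 2.3.3 and SciPy 1.17.1, and tested with exact two-sided permutation tests where groups had 3 libraries. Abundant 5′ ends reached 100 RPMM in 1 or more of the libraries compared.

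Named were all 10 arms, isomiRs with at least 5% of their arm in a library, for each 3p arm the miRNA with the nearest profile, and members of a marker and an epithelial list. The members, lists and tests were chosen with earlier results of these data known. Endothelial markers (miR-126-3p and miR-126-5p) summed to 133 RPMM in TS-GAIIx and 8968 in TS-HiSeq-ML, blood markers (2 of 4 located) to 4.77 and 4002, stromal markers to 11.7 and 9996, and their part in the liver values was not tested.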

Additional observations from a re-analysis of the deposited data

Results flagged for a closer look

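For 13 values, NF-HiSeq lay on one side of all 3 TS-GAIIx libraries in MIN6 while NF-HiSeq-ML lay on the other side of TS-HiSeq-ML in liver. These differences between MIN6 and liver were not tested, since liver had 1 library a protocol. Values are NEXTflex minus TruSeq in liver.

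For miR-429-3p the level was lower with NEXTflex in MIN6 (633 against 1835 to 1848 RPMM) and higher in liver, by 10.2 RPMM (250 and 119 reads). Its mean length was 0.28 nt longer with NEXTflex in MIN6 and changed by -0.55 nt in liver, and its share of reads with a mismatched last base changed by 1.27 and -12.6 percentage points. The within-library log2 ratios to miR-429-3p moved accordingly: that of miR-200c-3p changed by 3.86 in MIN6 and -0.43 in liver, that of miR-200b-3p by 1.05 and -2.08, and that of miR-200a-3p by 2.48 and -1.49. As given above, 97.2% of the miR-429-3p reads in NF-HiSeq-ML were 1 alignment.

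The level of miR-200a-3p changed by 584 RPMM in MIN6 and by -0.204 in liver, where it rests on 18 and 24 reads with overlapping 95% Poisson intervals (0.741 to 1.98 and 0.933 to 2.17 RPMM). Its share of mismatched last bases changed by 0.450 percentage points in MIN6 and -2.78 in liver. miR-200b-5p changed by 15.7 RPMM in MIN6 and by -0.476 in liver, on 1 and 9 reads. The share of mismatched last bases on miR-141-3p changed by 5.23 percentage points in MIN6 and -3.67 in liver, on 8 and 109 reads. The 5p share changed by 1.40 and -5.13 percentage points for miR-141 and by 1.39 and -0.379 for miR-200b. The share of the chromosome 6 cluster changed by -0.831 percentage points in MIN6 and 5.87 in liver.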

How the results depend on the processing

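All 10 arms kept their call and, with 1 exception, their direction under the alternatives that tested all of them, apart from dropping the filter on low counts. With all starts within 5 nt summed, miR-141-5p changed from lower to higher with v1.5 (0.49), because its upstream start is then included. With no filter, miR-141-3p and miR-429-3p were no longer called (adjusted p = 0.486 and 0.316, edgeR; at most 0.00109 and 0.0218 under their other alternatives), and 27365 5′ ends were called in place of 12533. With a minimum mean of 100 RPMM, 6 of the arms were tested and called, and 515 5′ ends were called; only whole-number counts gave 3685, and only the tabulated miRNAs and the members 316. Leaving out 1 library gave 10 arms in each case and 11926 to 12505 5′ ends. With the replicate number as a block 10 arms and 12838 5′ ends were called, and no arm lost its call. Deviations of same-numbered TruSeq and v1.5 libraries from their group means correlated by 0.133, -0.147 and -0.123 over 575 5′ ends, while each TruSeq library correlated best with a v1.5 library of another number (0.400, 0.445 and 0.355); the labels give no such pairing, and a shared source was not tested.

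With exact alignments only, the spread among the 3p arms was 3.11 in place of 2.99, the change of the cluster share -1.04 in place of 0.95 percentage points, and that of the log2 ratio of miR-141-3p to miR-200b-3p -0.17 in place of 0.11. The cause was not tested. Without 1 library each, the spread was 2.95 to 3.03, the change of the seed share -16.6 to -15.4 and that of the cluster share 0.740 to 1.33 percentage points. The numbers of non-overlapping groups did not move: 5 for the 5p shares, lengths and last bases and 4 for the starts. The values behind them moved more: with exact alignments only, the change of the miR-141 5p share was -0.224 in place of -0.760 percentage points, that of the miR-200b-3p start share -0.332 in place of -1.49, and that of the miR-200c-3p mean length 0.307 in place of 0.152 nt. With reference starts only, the change of the miR-200c 5p share was -0.279 in place of -0.734 percentage points. With starts within 2 nt, the change of the miR-429-3p start share was 0.157 in place of 0.239. Liver ratios moved as well, NEXTflex over TruSeq for miR-200b-3p being -0.19 on the log2 scale with exact alignments only in place of -0.80. With TMM factors miR-141-5p and miR-200a-5p changed by -0.99 and -0.95. Without TS-GAIIx-3 the small change in the start share of miR-200a-3p became 0.0107 percentage points in place of -0.0790, and without TS-GAIIx-2 it was -0.129. With 0.1 RPMM added in liver, 1 3p arm passed 10-fold (miR-141-3p). Liver counts of 1 to 36 reads limit what can be said of miR-200a and the 5p arms there.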
